A study of Mus musculus with 7 samples.

Results

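Dendritic cells (DCs) direct T cells and natural killer (NK) cells partly through secreted cytokines, and the genes described here are the 7 that encode the chains of the IL-12 family together with Il15 and Il15ra. IL-12 family cytokines are each built from a pair of chains that are shared between them. The chain from Il12b joins that of Il12a in IL-12, which favours interferon gamma production, and that of Il23a in IL-23, which sustains IL-17-producing T cells. The chain from Ebi3 joins that of Il27 in IL-27 and that of Il12a in IL-35, cytokines that also restrain T cells. IL-15 supports NK cells and memory CD8 T cells, and DCs present it on the receptor chain from Il15ra. The members were chosen by gene symbol from a table of 28666 genes. Each of the 7 symbols named 1 gene, and all 7 were among the 17461 genes left by the filter on low counts.

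The RNA came from bone marrow-derived DCs (BMDCs) of female C57BL/6 mice aged 6 to 8 weeks. Marrow was cultured for 7 days with GM-CSF at 20 ng/mL and IL-4 at 10 ng/mL, and the cells then shared a Transwell culture with MC38 cells, a colon adenocarcinoma line of the same mouse strain. The study describes the profiled BMDCs as kept with MC38 cells given DON, a glutamine antagonist, and names 24 h. A legend names DMSO or DON at 5 μM, and the labels give no such treatment for single libraries. Flow sorting then gave 3 libraries labelled immature and 4 labelled mature, and the markers of that sort are not given in the sources used here. In flow cytometry of tissues the study takes CD80 and CD86 as the marks of mature DCs. The study's methods speak in general of independent biological experiments, but the labels do not say whether these replicates came from separate mice or cultures, so p-values measure the spread between these samples, which may be technical.

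The total of estimated counts was 61296014, 57359581 and 67973086 in immature replicates 1 to 3 and 62285010, 61817255, 54846746 and 60481142 in mature replicates 1 to 4. Low values in the table pile up at 4 and 8. Over the 7 libraries the values 1 to 5 occurred 5745, 4549, 3473, 6956 and 2146 times, and the values 6 to 9 occurred 2429, 2045, 3153 and 1418 times. A sequenced fragment was therefore taken as about 4 counts, which is approximate, since values under 4 are also common and 6 exceeds 5 and 7. Mature replicate 3 stood apart from the other mature libraries. The median chi-square per gene, on counts divided by 4, was 6.92 to 9.71 between it and the others, 1.18 to 1.48 among mature replicates 1, 2 and 4, and 1.07 to 1.31 between immature libraries. Sampling noise alone gives 0.455, so no library was a copy of another. FPKM, fragments scaled by transcript length and library total, also summed to more in mature replicate 3, at 381707 against 329247 to 337706 in the other mature libraries.

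Marker genes describe the cells behind these libraries. Genes of DC maturation were higher in the mature libraries and those of macrophages in the immature ones, though both groups carried both sets. Both also carried genes of DCs, with Flt3 at only 0.04 to 0.09 FPKM in immature libraries. All 6 maturation markers passed the criteria as higher in mature cells, and their summed FPKM was 153, 157.1 and 145 in the immature and 1816, 1831, 1969 and 1829 in the mature libraries, with Ccr7 the most abundant. Here and below, the most abundant or leading gene of a list is the one with the highest FPKM averaged over all 7 libraries, and others can lead within a group. Cd80 and Cd86 are among these 6, so they are no independent mark if the sort used them. The criteria were a log2 fold change, mature over immature, of 1 or more in size together with a Benjamini-Hochberg adjusted p below 0.05 in edgeR's quasi-likelihood test. All 7 macrophage markers were lower in mature cells, with a summed FPKM of 612, 630.3 and 604 against 112, 108, 125 and 110.1, and C1qb was the most abundant. In bulk RNA, fewer cells of a type and less RNA per cell cannot be told apart. Of 6 DC markers, Flt3 and Zbtb46 were higher past the criteria, the other 4 were not past them, and Cd74 was the most abundant. Itgax was lower in every mature than in every immature library, with a log2 change of -0.41 (edgeR adjusted p = 0.0124). Cd74, H2-Aa and H2-Ab1 had log2 changes of 0.41, 0.53 and 0.06. Markers of lymphocytes were low, though some differed between the groups. The summed FPKM was at most 2.89 for the T cell list, 6.90 for the NK cell list and 0.63 for the B cell list in any library, led over all 7 libraries by Cd28, Gzma and Cd79b. Cd8a and Klrk1 were higher and Cd28 was lower in mature cells past the criteria, with log2 changes of 1.496, 3.59 and -2.49. The neutrophil list reached 3.73, the plasmacytoid list 1.62 and the mast cell and basophil list 1.80, led by S100a8, which was lower in mature cells past the criteria, Tcf4 and Prss34. The epithelial list, chosen for MC38 cells, summed to 13.8 to 21.6 and was led by Cdh1. Of its 5 genes only Epcam passed the criteria, as higher in mature cells, at 0.07 to 0.16 FPKM in immature and 0.31 to 0.72 FPKM in mature libraries. Krt8, Krt18, Krt19 and Cdh1 had log2 changes of -0.57, -0.53, -0.79 and -0.10, not past the criteria. The fibroblast list summed to 1.30 to 3.79, led by Col3a1. Of its 4 genes, Col1a2 and Dcn passed the criteria as higher, and Dcn was at 0.01 to 0.05 FPKM in immature libraries, 0.09 FPKM in mature replicate 1 and 1.31 to 1.36 FPKM in mature replicates 2 to 4. The part of these marker genes in the results below was not tested.

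Heart muscle genes split the mature libraries. The summed FPKM of 7 such genes was 1.81, 1.97 and 1.92 in immature replicates 1 to 3, 12.2 in mature replicate 1, and 250.4, 263.7 and 248.5 in mature replicates 2 to 4. In mature replicate 1 Tnni3 gave 11.2 of the 12.2, and the other 6 genes were each at 0.38 FPKM or less. Over all 7 libraries Mb was the most abundant of them, while Tnni3 led in the immature libraries as well, Myl2 was at 0 in all 3 immature libraries, and all 7 passed the criteria.

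Among the 7 members, Il12a, Il12b, Il23a, Il15 and Il15ra rose past the criteria in mature cells and none fell past them. Il23a was kept by the low-count filter through its mature libraries alone, and with no filter its edgeR adjusted p was 0.0748. Ebi3 was higher by less than the fold criterion, and Il27 did not pass the test. The 5 of 7 members past the criteria, all higher, stand beside a background of 4037 of the 17461 tested genes past the criteria in either direction (23.1%), with 13.2% higher and 9.95% lower in mature cells. The mature libraries lay above every immature library for 5 members, Il12b, Il23a, Ebi3, Il15 and Il15ra, and this held for 25.4% of all tested genes. The libraries of the groups overlapped for Il12a and Il27.

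The transcript levels of the chains covered a wide range. By mean FPKM in immature cells the order was Ebi3, Il15, Il15ra, Il12b, Il27, Il12a and Il23a, and in mature cells it was Ebi3, Il15, Il12b, Il15ra, Il12a, Il23a and Il27. Among neighbours in these orders, the ranges of the libraries overlapped for Il27 and Il12a in immature cells. In mature cells they overlapped for Il15 and Il12b, for Il12a and Il23a, and for Il23a and Il27. Over all 7 libraries the mean FPKM of Ebi3 lay above 94.6% of the tested genes, that of Il15 above 73.5%, that of Il12b above 67.0% and that of Il15ra above 62.0%. The means of Il12a, Il27 and Il23a lay above 28.5%, 18.0% and 11.1%.

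Il12b (ENSMUSG00000004296, chromosome 11 from 44400063 to 44414033, plus strand) encodes the chain shared by IL-12 and IL-23. It had 1.27, 1.00 and 1.57 FPKM in immature replicates 1 to 3 and 13.1, 9.22, 8.85 and 9.64 FPKM in mature replicates 1 to 4. The groups were far apart, and mature replicate 1 was the highest library. Il12b rose from 2.89 ± 0.709 (SD, n = 3) to 21.2 ± 3.70 (SD, n = 4) in CPM, where CPM is the count scaled to the library total after TMM normalization. The log2 change was 2.87 with a standard error of 0.21 (edgeR adjusted p = 1.0e-05).

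Il12a (ENSMUSG00000027776, chromosome 3 from 68690644 to 68698547, plus strand) encodes the chain that makes IL-12 with the product of Il12b. It had 0.12, 0.11 and 0.31 FPKM in immature replicates 1 to 3 and 0.27, 0.87, 1.40 and 0.98 FPKM in mature replicates 1 to 4. Mature replicate 1 lay within the immature range, and the other mature libraries lay above it. The log2 change was 2.14 with a standard error of 0.63 (edgeR adjusted p = 0.0227). The edgeR adjusted p was 0.0827 without immature replicate 1 and 0.0847 without immature replicate 2. With mature replicate 1 as the one mature library the log2 change was 0.46 (edgeR adjusted p = 0.716), where that library is assumed to vary like the immature ones, and over all alternatives the adjusted p ran from 0.00159 to 0.716. Mature replicates 2 to 4, in which Il12a was high, are also the libraries with heart muscle RNA, and the part of that RNA in the result was not tested. The counts of Il12a amount to about 17 fragments in the immature and 98 in the mature libraries, a ratio of 4.16 with an exact 95% interval of 2.47 to 7.44 that covers counting error only.

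Il23a (ENSMUSG00000025383, chromosome 10 from 128296139 to 128298752, minus strand) encodes the chain that makes IL-23 with the product of Il12b. Its estimated counts were 4, 8 and 0 in immature replicates 1 to 3 and 18, 18, 34 and 55 in mature replicates 1 to 4, or at most 0.05 FPKM in an immature and 0.36 FPKM in a mature library. All mature libraries lay above all immature ones, at a level near the limit of the depth. The low-count filter kept Il23a through its mature libraries alone, so its place among the tested genes depends on the group where it was high. These counts amount to about 3 fragments in the immature and 31 in the mature libraries, a ratio of 7.46 with an exact 95% counting interval of 2.33 to 38.2. The log2 change was 2.86 with a standard error of 0.97 (edgeR adjusted p = 0.0403). The edgeR adjusted p was 0.115 without immature replicate 1, 0.0671 without immature replicate 3 and 0.0886 without mature replicate 4. It was 0.0748 with no filter on low counts and 0.162 with the replicate block, and the DESeq2 adjusted p was 0.00673. With mature replicate 1 as the one mature library the log2 change was 1.96. Without immature replicate 2 the log2 change was 3.87 (edgeR adjusted p = 0.0416).

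Ebi3 (ENSMUSG00000003206, chromosome 17 from 55952640 to 55957022, plus strand) encodes the chain shared by IL-27 and IL-35 and was the most abundant member in every library. It had 29.0, 33.8 and 27.9 FPKM in immature replicates 1 to 3 and 49.7, 53.7, 73.5 and 57.0 FPKM in mature replicates 1 to 4. The groups did not overlap, and mature replicate 3 was the highest. The means were 39.7 ± 3.38 (SD, n = 3) and 71.8 ± 16.6 (SD, n = 4) in CPM, a log2 change of 0.85 with a standard error of 0.17 (edgeR adjusted p = 0.00318), which missed the criterion on fold change. It missed that criterion in all 17 alternatives, with log2 changes of 0.61 to 0.94. Without that criterion 6 of the 7 members and 8053 of the tested genes would count.

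Il27 (ENSMUSG00000044701, chromosome 7 from 126589010 to 126594941, minus strand) encodes the partner of the Ebi3 product in IL-27. Its estimated counts were 44, 12 and 19 in immature replicates 1 to 3 and 14, 0, 13 and 19 in mature replicates 1 to 4. Immature replicate 1 was the highest library, and the other 6 overlapped. The log2 change was -1.14 with a standard error of 0.96 (edgeR adjusted p = 0.371). It was -0.43 without immature replicate 1, -0.71 without mature replicate 2 and -1.87 with the replicate block. The first and last of these are the ends of its range over the alternatives. About 19 fragments in the immature and 12 in the mature libraries give a ratio of 0.456 with an exact 95% counting interval of 0.202 to 0.990, which leaves out the spread between libraries. In the GENCODE annotation Il27 overlaps Apobr and Ebi3 overlaps Gm16712, each on the opposite strand. The library protocol in the labels marks the strand, but whether the counting used it is not given in the sources used here, so reads of these pairs may not be told apart.

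Il15 (ENSMUSG00000031712, chromosome 8 from 82331632 to 82403209, minus strand) encodes the cytokine that DCs hold on their surface for NK cells and CD8 T cells. It had 3.64, 4.17 and 4.21 FPKM in immature replicates 1 to 3 and 12.1, 12.0, 13.5 and 11.8 FPKM in mature replicates 1 to 4. The groups were well apart, and mature replicate 3 was the highest library. Il15 rose from 10.4 ± 0.951 (SD, n = 3) to 29.7 ± 3.36 (SD, n = 4) in CPM, a log2 change of 1.52 with a standard error of 0.12 (edgeR adjusted p = 1.7e-05).

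Il15ra (ENSMUSG00000023206, chromosome 2 from 11705290 to 11734317, plus strand) encodes the receptor chain that presents IL-15 to neighbouring cells. It had 1.61, 1.87 and 1.66 FPKM in immature replicates 1 to 3 and 8.06, 8.20, 6.88 and 7.04 FPKM in mature replicates 1 to 4. Every mature library was above every immature one. Il15ra rose from 8.76 ± 0.646 (SD, n = 3) to 35.5 ± 2.06 (SD, n = 4) in CPM, a log2 change of 2.02 with a standard error of 0.10 (edgeR adjusted p = 1.1e-06). The cytokine and its presenting chain thus both passed the criteria, as they did without each library in turn and with mature replicate 1 as the one mature library.

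**Figure D1:**
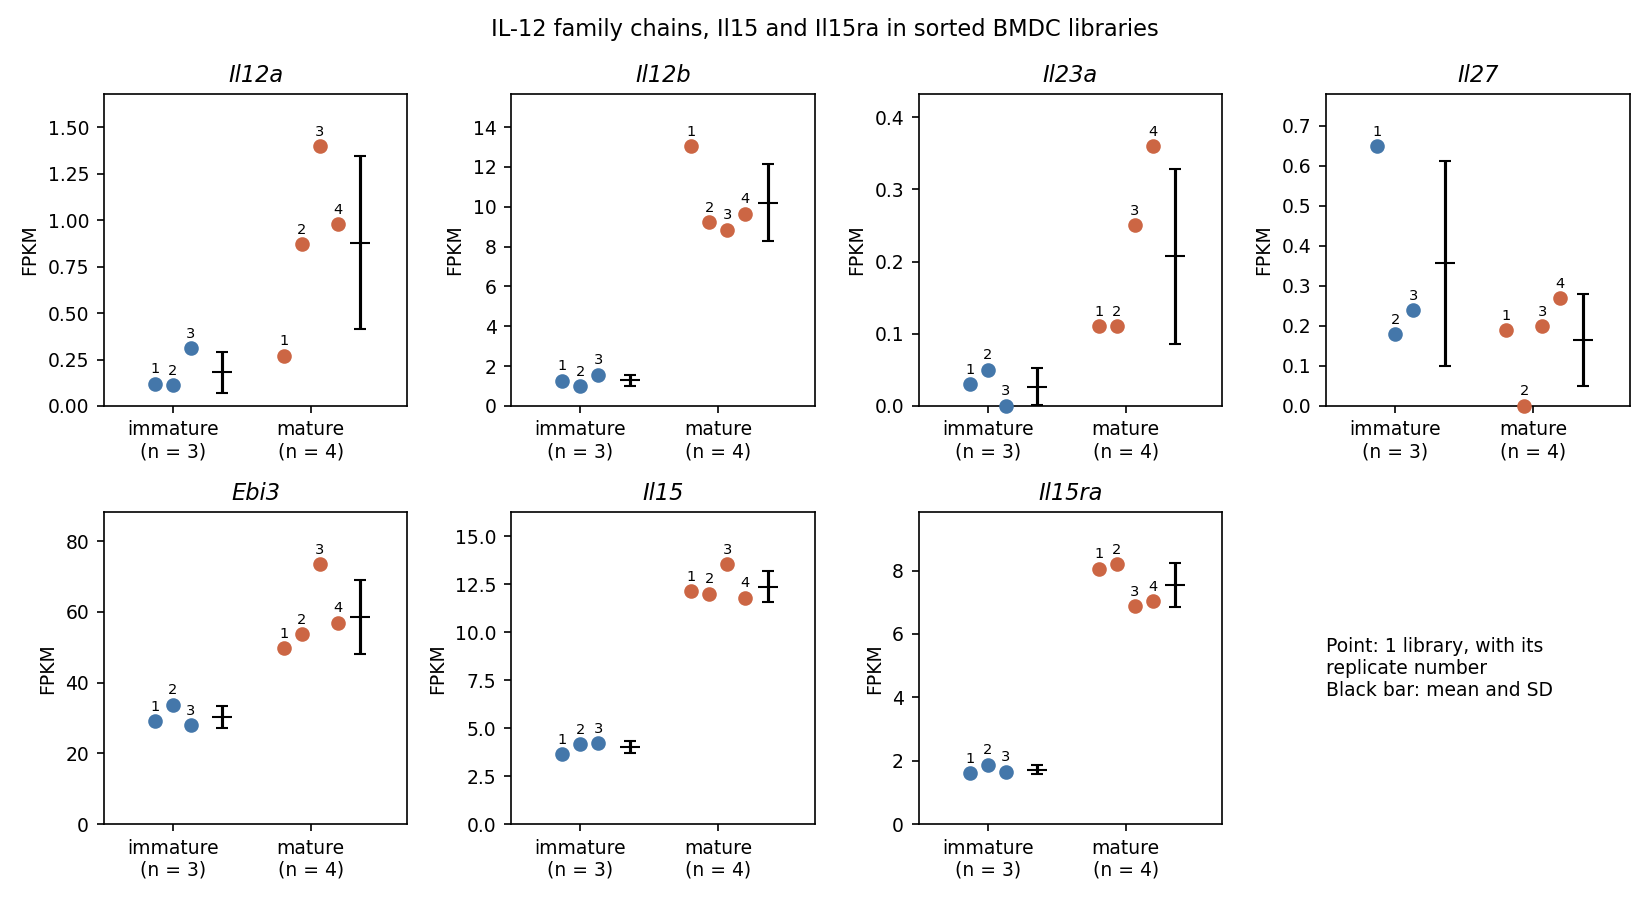
FPKM of the 7 members in each library, with a linear axis from 0 in every panel, immature libraries in blue and mature libraries in orange, replicate numbers above the points, and the mean with its SD (n = 3 and n = 4) as a black bar. The mature libraries lie above the immature ones for Il12b, Il23a, Ebi3, Il15 and Il15ra, while mature replicate 1 lies within the immature range for Il12a and the groups overlap for Il27.

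Chains that pair in a cytokine were compared as log2 ratios of FPKM in each library, with 0.01 added to both values. For 3 libraries against 4, the two-sided exact permutation test over 35 labelings used here has a smallest p of 0.0571, so none of the 5 ratios could reach 0.05. The Il15ra to Il15 ratio was -1.22 ± 0.10 (SD, n = 3) in immature and -0.71 ± 0.19 (SD, n = 4) in mature cells, a difference of 0.51 (exact permutation p = 0.0571, the smallest possible, adjusted over 5 ratios p = 0.143). On the linear scale Il15ra stood at 0.396 to 0.450 of the Il15 level in immature and 0.508 to 0.683 in mature libraries, so all 4 mature libraries lay above all 3 immature ones.

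The chains of IL-12 were unequal in every library. Il12b exceeded Il12a by 9.85, 8.42 and 4.94 times in immature replicates 1 to 3 and by 46.6, 10.5, 6.28 and 9.75 times in mature replicates 1 to 4. The groups overlapped, and mature replicate 1 was far above the rest. The difference in log2 ratio was 0.83 (exact permutation p = 0.343, adjusted p = 0.429), and it was 0.22 without mature replicate 1. For IL-23, the Il12b to Il23a log2 ratio was 5.46 ± 1.66 (SD, n = 3) in immature and 5.71 ± 0.97 (SD, n = 4) in mature cells, a difference of 0.25 (exact permutation p = 0.857, adjusted p = 0.857). Immature replicate 3, with no count of Il23a, has a ratio set by the 0.01 added, and without it the difference was 1.17. The difference was -0.45 without immature replicate 2 and -0.11 without mature replicate 1. With 0.1 added in place of 0.01 it was 1.69 (exact permutation p = 0.0571), so its size and sign varied with these settings. For IL-27, the Ebi3 to Il27 log2 ratio was 6.58 ± 1.03 (SD, n = 3) and 9.12 ± 2.21 (SD, n = 4), a difference of 2.54 (exact permutation p = 0.0571, adjusted p = 0.143), and all 4 mature libraries lay above all 3 immature ones. Mature replicate 2, with no count of Il27, has a ratio set by the 0.01 added. Without it the difference was 1.45, and with 0.1 added it was 1.74. For the IL-35 pair, the Ebi3 to Il12a log2 ratio was 7.46 ± 0.89 (SD, n = 3) and 6.24 ± 0.83 (SD, n = 4), a difference of -1.22 (exact permutation p = 0.114, adjusted p = 0.190). This difference was -0.77 with 0.1 added and -1.73 without immature replicate 3, the ends of its range over the alternatives.

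The receptors for these cytokines were also measured in the same cells. Of 7 receptor genes, 3 rose and none fell past the criteria, beside 13.2% and 9.95% of all tested genes, with a median log2 change of 0.54 against 0.055 over all tested genes. Il12rb2, the signaling chain of the IL-12 receptor, had 2.31, 1.65 and 2.09 FPKM in immature replicates 1 to 3 and 21.3, 19.1, 6.04 and 19.0 FPKM in mature replicates 1 to 4. Mature replicate 3 was low among the mature libraries and still above the immature ones. The log2 change was 2.89 with a standard error of 0.39 (edgeR adjusted p = 0.000362). Il23r, the specific chain of the IL-23 receptor, rose from 0.113 ± 0.0751 FPKM (SD, n = 3) to 1.88 ± 0.496 FPKM (SD, n = 4), a log2 change of 3.90 with a standard error of 0.48 (edgeR adjusted p = 0.000214). It passed in all 17 alternatives, at 1.36 with limma on log2(FPKM + 1), where the 1 added exceeds the immature level, and at up to 4.47 in the others. Il6st, the signaling chain used by IL-27, rose from 3.79 ± 0.263 FPKM (SD, n = 3) to 9.42 ± 2.58 FPKM (SD, n = 4), with a log2 change of 1.19 (edgeR adjusted p = 0.00116). The common gamma chain Il2rg, through which IL-15 signals, was the most abundant of the list and had a log2 change of 0.54 (edgeR adjusted p = 0.000665), under the fold criterion. The other receptor genes were not past the criteria, with log2 changes of -0.56 for Il12rb1, -0.20 for Il27ra and 0.16 for Il2rb.

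The kinases and transcription factors downstream of these receptors were next. Of 10 JAK and STAT genes, 4 rose and none fell past the criteria, where 13.2% of all tested genes rose and 9.95% fell, with a median log2 change of 0.79. Mature replicate 3 was low for this list, with a summed FPKM of 467.7 against 627.6 to 658.3 in the other mature libraries. The immature libraries were at 243.3 to 264.9. Stat4, the main signal carrier of the IL-12 receptor, rose from 2.74 ± 0.132 FPKM (SD, n = 3) to 62.2 ± 5.49 FPKM (SD, n = 4), a log2 change of 4.39 with a standard error of 0.10 (edgeR adjusted p = 1.3e-07). Jak3, the kinase bound to the common gamma chain, rose with a log2 change of 1.69 (edgeR adjusted p = 6.6e-07). Jak2, a kinase of the IL-12 and IL-23 receptors, was the most abundant gene of the list. It rose from 96.4 ± 5.76 FPKM (SD, n = 3) to 296.6 ± 53.9 FPKM (SD, n = 4), a log2 change of 1.51 (edgeR adjusted p = 2.5e-05). Stat5a, which acts downstream of IL-15, was close to the fold criterion, at a log2 change of 1.03 (edgeR adjusted p = 8.7e-05) and 0.99 without mature replicate 4. Tyk2 and Stat3 were not past the criteria, at 0.76 and 0.82.

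Transcription factors known to act on the promoters of these cytokines changed in both directions. Of 17 genes, 7 rose and 2 fell past the criteria, beside 13.2% and 9.95% of all tested genes, with a median log2 change of 0.71. The NF-kappa B subunit genes Relb, Nfkb2 and Rel, the last known as an activator of Il12b, rose with log2 changes of 2.63 (edgeR adjusted p = 1.8e-06), 2.34 (edgeR adjusted p = 3.0e-07) and 2.17 (edgeR adjusted p = 1.5e-05). Irf8, a factor of DC development that also acts on Il12b, rose from 13.5 ± 0.306 FPKM (SD, n = 3) to 62.7 ± 2.09 FPKM (SD, n = 4), a log2 change of 2.11 with a standard error of 0.08 (edgeR adjusted p = 4.4e-07). Cebpb, a basic leucine zipper factor of myeloid cells, fell from 151 ± 11 FPKM (SD, n = 3) to 37.5 ± 8.34 FPKM (SD, n = 4), a log2 change of -2.10 with a standard error of 0.19 (edgeR adjusted p = 3.0e-05). Irf5 was the most abundant over all 7 libraries, though under Cebpb in immature cells, at 105 ± 2.83 FPKM (SD, n = 3) and 118 ± 6.29 FPKM (SD, n = 4), with a log2 change of 0.08 (edgeR adjusted p = 0.510). Irf4, at a log2 change of 0.99, was not past the criteria and passed in 10 of 17 alternatives. The second gene that fell, Nfkbiz, overlapped between the groups and had 10.4, 5.03 and 2.58 FPKM in immature replicates 1 to 3. Its log2 change was -1.42 (edgeR adjusted p = 0.0195). Without immature replicate 1 it was -0.78, under the fold criterion, and its edgeR adjusted p was 0.0827 without that library and 0.0509 without mature replicate 4, in a range of 0.00403 to 0.0993. The call was lost in 6 of 17 alternatives.

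Receptors and adaptors that induce these cytokines moved in both directions. Of 13 genes, 1 rose and 6 fell past the criteria, beside 13.2% and 9.95% of all tested genes, with a median log2 change of -0.92. The summed macrophage markers fell in the same libraries, and their part in the result was not tested. The largest fall was that of Tlr8, a receptor for RNA, from 16.3 ± 1.67 FPKM (SD, n = 3) to 1.72 ± 0.368 FPKM (SD, n = 4), with a log2 change of -3.35 (edgeR adjusted p = 8.8e-07). Tlr7, Tlr4 and Tlr3 fell as well, with log2 changes of -2.61 (edgeR adjusted p = 3.1e-06), -1.91 (edgeR adjusted p = 2.5e-05) and -1.52 (edgeR adjusted p = 0.000299). Cd40, through which T cells induce IL-12 in DCs, rose from 1.18 ± 0.135 FPKM (SD, n = 3) to 8.50 ± 1.60 FPKM (SD, n = 4), a log2 change of 2.74 (edgeR adjusted p = 1.0e-05). It is also one of the maturation markers. Ifngr1 was the most abundant over all 7 libraries, though under Ifngr2 in mature cells, and lay at the fold criterion, with a log2 change of -1.003 (edgeR adjusted p = 1.1e-05). It missed that criterion in 13 of 17 alternatives, among them without immature replicate 3 and without mature replicates 2, 3 and 4 in turn, where it ran from -0.95 to -0.998.

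Genes that restrain these cytokines were also listed. Of 9, Bcl6, a transcriptional repressor, rose with a log2 change of 1.06 (edgeR adjusted p = 0.000101) and none fell past the criteria, beside 13.2% and 9.95% of all tested genes, and the median was 0.24. Without immature replicate 2 the log2 change of Bcl6 was 0.98. Zfp36, which speeds the decay of cytokine mRNAs, was the most abundant over all 7 libraries, though under Tgfb1 in immature cells, at 73.9 ± 22.4 FPKM (SD, n = 3) and 92.5 ± 28.9 FPKM (SD, n = 4), with a log2 change of 0.24 (edgeR adjusted p = 0.533). Il10 was at 0.04 to 0.12 FPKM in immature and 0.05 to 0.54 FPKM in mature libraries (edgeR adjusted p = 0.144).

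Related cytokines were near or under the criteria. In the list of 7 helical cytokines and partners, none rose or fell past them in the fit to all 7 libraries. Of all tested genes 13.2% rose and 9.95% fell, and the median log2 change of the list was -0.36. Lif, at a log2 change of 0.96, passed without mature replicate 1, at 1.08, and with at least 50 counts in 3 libraries. Osm was the most abundant, with a log2 change of -0.53 (edgeR adjusted p = 0.00421). Il6 was at 5.69 ± 0.676 FPKM (SD, n = 3) and 6.12 ± 1.13 FPKM (SD, n = 4) (edgeR adjusted p = 0.987). Of 5 other cytokines that use the common gamma chain, Il4 and Il7 were tested and neither passed, beside the same shares, with a median of 0.72. Il7 was the most abundant, at 0.183 ± 0.0451 FPKM (SD, n = 3) and 0.357 ± 0.0556 FPKM (SD, n = 4), with a log2 change of 0.89 that was 1.07 and past the criteria without immature replicate 2. Il21 was left out by the filter on low counts, and Il2 and Il9 had no row under their symbols.

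Of the genes that IL-12, IL-23 and IL-15 induce in lymphocytes, 7 are reported here. Il17a had no row under its symbol, and the other 6 were at 1.01 FPKM or less in every library. Only Tbx21 and Gzmb were tested, with a median log2 change of 0.70, and neither passed the criteria, beside 13.2% and 9.95% of all tested genes. Gzmb was the most abundant at 0.757 ± 0.136 FPKM (SD, n = 3) and 0.900 ± 0.133 FPKM (SD, n = 4) (edgeR adjusted p = 0.694). Tbx21, a factor of interferon gamma production, was at 0 to 0.08 FPKM in immature and 0.07 to 0.12 FPKM in mature libraries (edgeR adjusted p = 0.330).

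**Figure D2:**
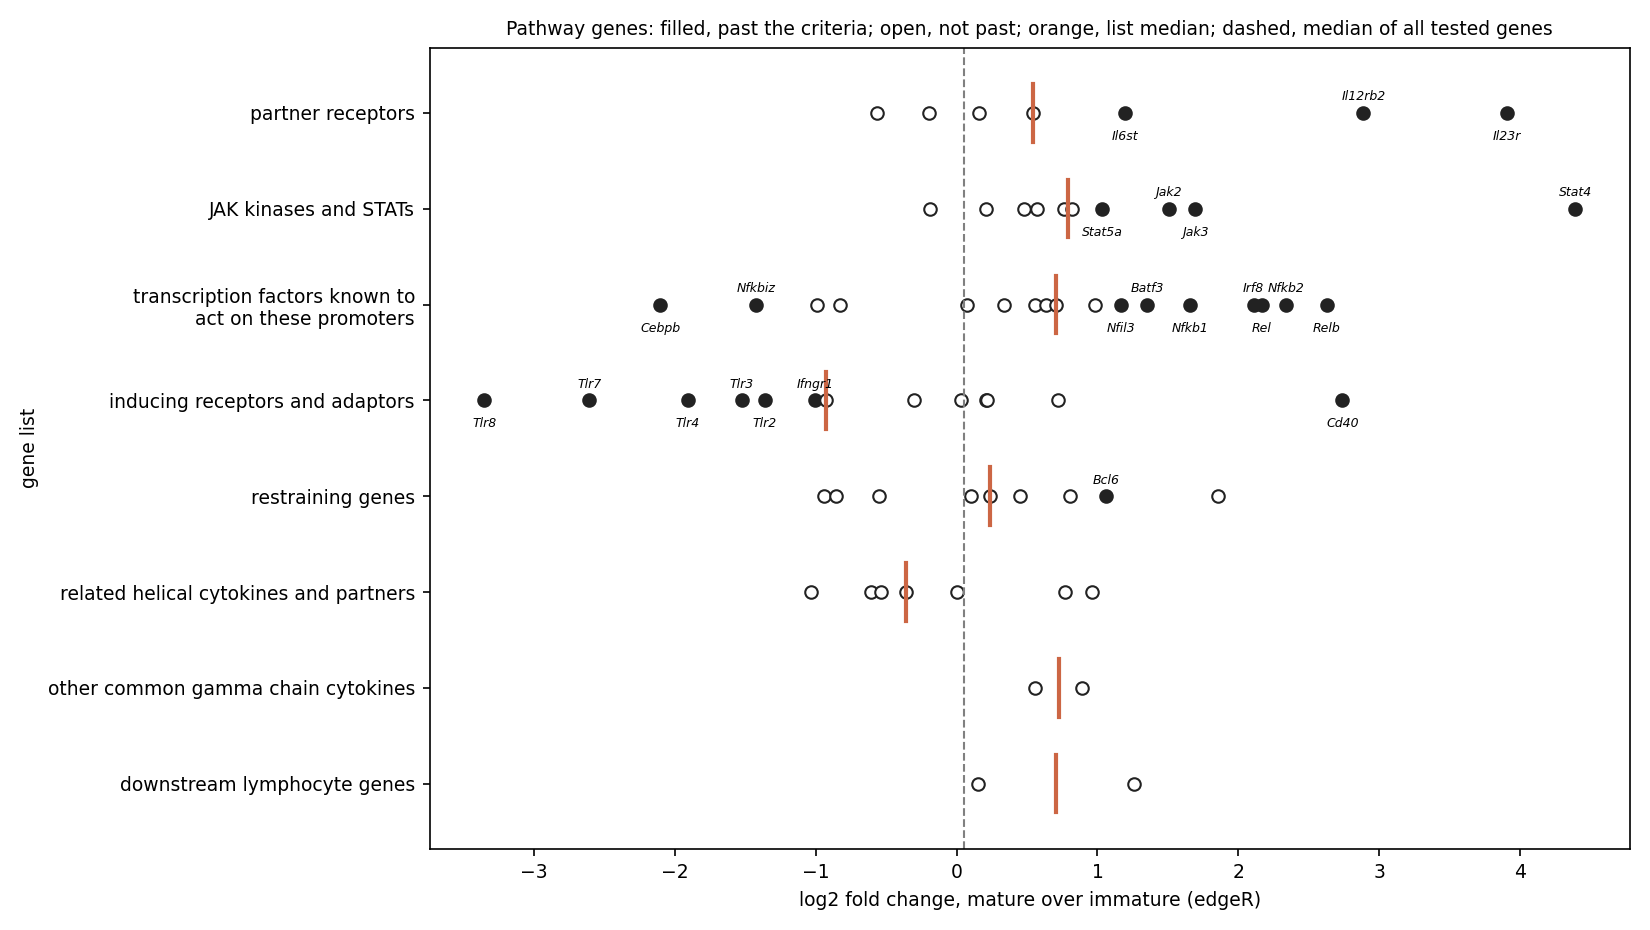
Log2 fold change, mature over immature, of the tested genes of the 8 pathway lists (1 row a list), with filled points for genes past the criteria, open points for the others, an orange bar at the median of the list and a dashed line at the median of all tested genes (0.055). Receptor, JAK and STAT genes past the criteria lie to the right of 0 and most inducing receptors to the left, with Tlr8 at -3.35 and Stat4 at 4.39.

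The genes most like each member were found by Pearson's r of log2 CPM over the 7 libraries, among tested genes with a mean of at least 1 CPM, and r is given as a description. For Il12b they were Terf2 (r = 0.999) and Ctsf (r = 0.998), for Il15 Zfp219 (r = 0.999) and Nmnat3 (r = 0.999), and for Il15ra H2-Q5 (r = 0.9997) and Fhod1 (r = 0.999). Such values are common where the groups stand far apart. In all, 1168 genes had an r of at least 0.95 with Il12b, 1257 with Il15 and 1391 with Il15ra. Ebi3 was most like Abhd14b (r = 0.999) and Ddx49 (r = 0.997), with 500 genes at that level. Il12a, which set mature replicate 1 apart from the other mature libraries, was most like Il1b (r = 0.993) and Tha1 (r = 0.982), with 37 genes at that level. Il23a was most like Gm10130 (r = 0.968) and Pde1b (r = 0.966), and Il27 like Optn (r = 0.962) and Elp4 (r = 0.941). Among the members themselves, r was 0.986 between Il15 and Il15ra, 0.981 between Il12b and Il15ra, 0.974 between Il12b and Il15, 0.761 between Il12b and Il12a, and 0.749 between Il12b and Il23a. These values share the difference between the groups.

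Promoter sequence was at hand for 4 of the 7 members (Il12a, Il12b, Ebi3 and Il15ra) in RefSeq on GRCm38.p6, with 2 starts each for Il12a and Il15ra. The 250 bases before each start were searched on both strands for 6 short motifs of factors in the lists. These were a kB motif for NF-kappa B (GGG and CC with any 5 bases between), a long form (GAAA and GAAA with any 2 bases between) and a short form (the long without its last base) for interferon regulatory factors, TTGCNNAA for C/EBP, GAGGAA for PU.1 and TGANTCA for AP-1. Of 32851 promoters cut to the same 250 bases, 45.8% held the kB motif, 2.98% the long and 7.13% the short interferon regulatory factor motif, 9.56% TTGCNNAA, 23.3% GAGGAA and 6.75% TGANTCA. Sequences are printed for 1 start of each of the 4 genes, to show the matches in place, and capitals mark them. Where a gene had 2 starts, the printed one is the start whose window held the kB motif. A match is a description of the letters and not a site. The search looked for these exact patterns only, so a window without a match is not shown to lack a site.

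Il12b was searched at chr11:44399813-44400062, plus strand, which holds no annotated exon. It held GAGGAA 143 bases before the start and its reverse complement 219 bases before it, and none of the other 5 motifs.
Il12b: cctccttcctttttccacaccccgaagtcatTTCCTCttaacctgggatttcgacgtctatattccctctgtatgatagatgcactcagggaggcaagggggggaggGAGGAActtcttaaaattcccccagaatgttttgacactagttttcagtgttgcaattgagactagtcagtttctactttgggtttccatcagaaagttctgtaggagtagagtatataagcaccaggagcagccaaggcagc
Ebi3 was searched at chr17:55952373-55952622, plus strand, with no annotated exon. It held the kB motif in 2 overlapping matches 44 and 43 bases before the start, and GAGGAA 176 bases before it.
Ebi3: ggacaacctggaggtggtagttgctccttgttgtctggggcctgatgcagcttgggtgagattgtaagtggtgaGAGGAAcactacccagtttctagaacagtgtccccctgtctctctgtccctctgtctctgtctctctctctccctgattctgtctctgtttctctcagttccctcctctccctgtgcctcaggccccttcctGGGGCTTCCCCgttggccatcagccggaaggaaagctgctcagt
For Il12a the second start is shown, at chr3:68691174-68691423, plus strand, which is intronic to the transcript from the first start. It held the kB motif in 2 overlapping matches 113 and 112 bases before the start, and the window of the first start held none of the motifs.
Il12a: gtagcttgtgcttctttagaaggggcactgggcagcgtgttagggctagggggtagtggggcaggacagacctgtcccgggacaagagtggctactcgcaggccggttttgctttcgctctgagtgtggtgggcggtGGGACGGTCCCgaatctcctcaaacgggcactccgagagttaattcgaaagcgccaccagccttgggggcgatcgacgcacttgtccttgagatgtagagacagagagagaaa
For Il15ra the second start is shown, with only the 133 bases that no annotated exon covers, chr2:11705579-11705711, plus strand, intronic to the longer transcripts. It held the kB motif 102 bases and TGANTCA 30 bases before the start. The window of the first start, where an annotated exon reaches the end, held the short interferon regulatory factor motif 149 bases and GAGGAA 212 and 196 bases before that start, and no kB motif.
Il15ra: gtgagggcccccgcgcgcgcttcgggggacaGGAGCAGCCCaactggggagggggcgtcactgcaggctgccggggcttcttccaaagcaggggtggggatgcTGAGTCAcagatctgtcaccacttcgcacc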

How the data were processed

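RNA-seq of 3 immature and 4 mature BMDC libraries was analysed, with groups and replicate numbers from the sample labels. The authors deposited estimated counts per gene as whole numbers, not scaled between libraries, in which 1 fragment was taken as about 4 counts. The authors also deposited FPKM values, scaled by transcript length and library total and rounded to 2 decimals. The submitters' processing notes name cutadapt 1.9, HISAT2 2.2.1, StringTie 2.1.6, DESeq2 and edgeR without roles, and mm9 as the build. The coordinates of the table are nevertheless those of GENCODE M21 on GRCm38 for 24940 of 28588 matched genes, and for 6 of the 7 members. Il15 differs at 1 end.

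The counts were tested with edgeR 4.0.16 in R 4.3.3, using TMM normalization, edgeR's own low-count filter, the quasi-likelihood test on all 7 libraries and Benjamini-Hochberg adjustment over all tested genes. The design had been written for counts, and the estimated counts were already whole. The standard error is the size of the log2 fold change divided by the square root of F. Ratios were compared by a two-sided exact permutation test whose p is 2 times the smaller one-sided share. The first run had counted labelings with at least the same absolute difference, a form that can go under 0.05 where the design fixed earlier says that 3 against 4 libraries cannot. It was replaced after its results were seen, and had given exact permutation p values of 0.371 for Il12b to Il12a, 0.800 for Il12b to Il23a, 0.0857 for Ebi3 to Il27, 0.143 for Ebi3 to Il12a and 0.0571 for Il15ra to Il15. Alternatives used DESeq2 1.42.0, limma 3.58.1 on log2(FPKM + 1) and log2(FPKM + 0.1) where 3 or more libraries reached an FPKM of 1, RLE size factors, no filter, at least 50 counts in 3 libraries, each library left out, a replicate block, mature replicate 1 as the one mature library and no criterion on fold change. For ratios they used 0.1 in place of the 0.01 added, CPM in place of FPKM and each library left out. Counts divided by 4 and rounded, with and without the filter, were added after seeing the data. The tests were also run on simulated data, in which no gene with a mean level as low as that of Il23a or Il27 was given a change. Exact intervals have a confidence level of 95% and cover counting error only. Python 3.11.15, pandas 2.3.3, numpy 2.4.6, scipy 1.17.1 and matplotlib 3.10.9 were used.

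Named genes are the 7 members, up to 5 genes past the criteria with the largest change and the most abundant gene of each of 8 pathway lists, and the 2 genes most like each member. Other list genes not past the criteria may be given, and Nfkbiz and the marker genes past the criteria were named after its values were seen. The list of lymphocyte genes had 1 more gene that is not reported here. The members and lists were chosen with earlier results of these data known.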

Additional observations from a re-analysis of the deposited data

Results flagged for a closer look

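For each of 12 values, the mature libraries were screened for 1 that stands away from the remaining 3, measured as its distance to the closest one over the whole spread. This was met by 3 values (about 1 in 20 would meet it by chance), and some of the 12 values share their data. Il15 scored 0.878, with mature replicate 3 at 34.7 CPM and the rest at 27.6 to 28.5 CPM. Before scaling, its estimated count there was 1837 against 1751 to 1881 in the rest, from a library total of 54846746 against 60481142 to 62285010. Its FPKM was 13.5 there against 11.8 to 12.1 in the rest. The cause of the gap was not tested. The Ebi3 to Il12a log2 ratio scored 0.871, with mature replicate 1 at 7.47 and the rest at 5.70 to 5.93. The Ebi3 to Il27 log2 ratio scored 0.835, with mature replicate 2, which had no count of Il27, at 12.4 and the rest at 7.67 to 8.45. That 12.4 is set by the 0.01 added, and with 0.1 added the score was 0.629, which no longer meets the screen.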

How the results depend on the processing

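Il12b, Il15 and Il15ra passed the criteria in all 17 alternatives, with log2 fold changes of 2.29 to 3.22, 1.42 to 1.60 and 1.65 to 2.11. Ebi3 and Il27 passed in none that kept the fold criterion, and no member changed sign. The median of all tested genes moved from 0.055 to 0.076 with RLE size factors, 0.171 with no filter and 0.18 with DESeq2, the last pair over more genes. The number of genes past the criteria was 1768 and 2561 with limma on log2(FPKM + 1) and log2(FPKM + 0.1), on fewer genes tested, and 8053, with 6 members, without the fold criterion. Of the members, 3 passed with either limma fit, in which Il12a, Il23a and Il27 were not tested, and 3 passed with mature replicate 1 as the one mature library. Leaving out each library gave 3646 to 4052 genes and 3 to 5 members, and log2 fold changes of 1.80 to 2.78 for Il12a and 2.26 to 3.87 for Il23a. With mature replicate 1 alone, on fewer samples, the log2 fold change was 0.46 for Il12a and 1.96 for Il23a, neither past the criteria. Il23a was also not past them with no filter, at 2.87. The strict filter and the filter on counts divided by 4 left out Il23a and Il27.

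The labels give both groups replicate numbers 1 to 3, but same-numbered libraries deviated together very little, with correlations of 0.0285, -0.00114 and 0.0144. The highest correlation of these immature libraries with a mature library of another number was 0.0247, 0.036 and 0.0092. Immature replicates 1 and 3 thus correlated best with their own number, by small margins, and immature replicate 2 did not. With the replicate block 3616 genes and 4 members passed, and Il23a was at 2.59 (edgeR adjusted p = 0.162). Of the list genes, Stat5a at 0.97 and Nfkbiz at -1.07 were not past the criteria there. The Il12b to Il23a difference was -0.35 on CPM, 1.69 with 0.1 added in place of 0.01, and -0.45 to 1.17 without each library, so its sign is not settled, and the cause was not tested. Of 24 list genes past the criteria, 20 stayed past in each alternative that tested them, and 0 changed sign. Another 7 list genes passed in alternatives alone. Il23a and Il27 rest on few counts, and the part of depth in their results was not tested.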
